A study of Arabidopsis thaliana with 84 samples.

Results

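EXPA7, EXPA18 and TRY, genes of root hair growth and of epidermal patterning, were followed in roots of Arabidopsis thaliana given nitrate or a salt control. They are 3 of the 22810 probe sets of the Affymetrix ATH1 array and were taken by gene name from the platform annotation, which gives each of them 1 gene. Each gene, EXPA7 (AT1G12560), EXPA18 (AT1G62980) and TRY (AT5G53200), is read by a single probe set. All 3 probe sets passed the filter on low values and were among the 19258 tested in sorted cells and the 20236 tested in roots and unsorted protoplasts. No genome build is named for the array values, so no coordinates are given, and no sequences were used.

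EXPA7 and EXPA18 encode alpha-expansins, secreted proteins that loosen the bonds between polymers of the cell wall so that it can yield to turgor. Both are best known from the hair-forming cells of the root epidermis, where they come on as hairs emerge and elongate. TRY (TRIPTYCHON) encodes a small MYB protein that lacks an activation domain, moves between neighbouring cells and competes for the bHLH partners of activating MYB proteins. It is best known for spacing leaf hairs, and in the root it acts with its relatives CAPRICE and ETC1 in favour of hair fate.

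All plants were in the Col-0 background, were 12 days old and had grown in hydroponic culture with ammonium succinate as the nitrogen source. The treatment was KNO3 at 5 mM, with KCl at the same concentration as its control. It lasted 2 h in most groups and 3.5 h in 2 groups of whole roots. After enzymes had digested the walls, fluorescent sorting gave 5 populations: lateral root cap (LRC), epidermis with cortex (EpiC), endodermis with pericycle (EndoP), pericycle (Peri) and stele (Stele). Each population had a KCl group, a continuous KNO3 group, in which nitrate stayed in the digestion solution, and a transitory KNO3 group, in which it did not. The reporters that marked the cells are not given in the sources used here. Peri had 3 more groups with methionine sulfoximine (MSX) at 1 mM, an inhibitor of glutamine synthetase: KCl with MSX, KNO3 with MSX, and KNO3 with MSX and 5 mM glutamine (Gln). Digested cells that were held on ice in place of sorting (protoplasts) and roots kept in the solution without enzymes (incubated roots) had the same 3 treatments. Whole roots were frozen straight after 2 h or 3.5 h of KCl or KNO3. Each of the 28 groups had 3 arrays, which the titles call biological replicates. EpiC groups were read from titles and descriptions, because every EpiC source name says continuous.

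Values are log2 expression signals. RNA of the 54 arrays of sorted cells was labelled by a two-cycle protocol from 50 ng, and RNA of the other 30 by a one-cycle protocol from 1 ug, so both sets were analysed apart. Median correlation with the other arrays of the set or sorted population was low for 7 arrays, which are said here to stand apart. In the one-cycle set these 5 were replicate 1 of whole roots in KCl at 2 h (0.169), replicates 1 and 2 of incubated roots in KCl (0.15 and 0.451) and replicates 1 and 2 of incubated roots in continuous KNO3 (0.678 and 0.103). In sorted cells they were replicate 1 of LRC in continuous KNO3 (0.57) and replicate 1 of EndoP in transitory KNO3 (0.47). Array signal, the trimmed mean of the unlogged values, ran from 71.5 to 85.1 on one-cycle arrays and from 171 to 373 in sorted cells. Of the markers set for each population, few were measured: 1 of 4 for LRC, 2 of 6 for epidermis (EXPA7 and EXPA18 themselves), 3 of 3 for cortex, 1 of 5 for endodermis and 1 of 9 for pericycle and stele. Measured here means that the annotation used ties a probe set to that gene alone. It names 1 gene for 13513 of the 22810 probe sets, so a gene not counted as measured may still be on the array. RCPG, a marker of the root cap, was higher in LRC by 2.27 in KCl, and 1 of 3 cortex markers (CO2) was higher in LRC by 0.59, while no cortex, endodermis, pericycle or stele marker passed the test in its own population.

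The expansins were lower in protoplasts than in intact roots. On the 9 protoplast arrays, over all treatments, EXPA7 ran from 5.21 through a median of 5.48 to 6.24, and on the 21 arrays of whole and incubated roots from 5.62 through 6.30 to 6.86. EXPA18 ran from 5.20 through 5.68 to 6.45 in protoplasts and from 5.81 through 6.36 to 7.10 in intact roots. For each gene 5 of the 9 protoplast arrays lay under the lowest root array, and the ranges overlapped. Within an array, EXPA7 stood at percentile 27.2 to 66.4 in protoplasts (median 42.9) and 46.8 to 88.3 in intact roots (median 67.3). EXPA18 stood at 26.7 to 73.2 (median 49.7) and at 53.4 to 86.4 (median 68.5). The protoplast levels were thus in the low to middle part of the array, and detection above background was not tested. Averaged over groups, EXPA7 was lower in protoplasts by a log2 difference of -0.66 (SE 0.16, adjusted p = 0.003584, limma) and EXPA18 by -0.62 (SE 0.15, adjusted p = 0.005107). TRY differed by -0.12 (SE 0.30, adjusted p = 0.8168). In this comparison 18.8% of all probe sets passed. It pools treatments and was chosen after the values had been seen, so its p-values describe these arrays and are no independent test. In bulk samples, fewer cells of a type and less RNA per cell cannot be told apart. Digestion also came with another RNA extraction, on columns for protoplasts and with TRIzol for roots, and the effects of both cannot be told apart.

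The difference was much the same against either kind of root. Against the 9 arrays of incubated roots, EXPA7 differed by -0.69 (SE 0.19, limma, adjusted p = 0.009707) and EXPA18 by -0.62 (SE 0.18, adjusted p = 0.01529), where 24.7% of probe sets passed. Against the 12 arrays of whole roots the differences were -0.65 (SE 0.17, adjusted p = 0.01246) for EXPA7 and -0.62 (SE 0.17, adjusted p = 0.01404) for EXPA18, where 12.8% passed. Incubated roots did not differ from whole roots by a called amount: 0.04 (SE 0.17) for EXPA7, 0.00 (SE 0.17) for EXPA18 and 0.71 (SE 0.33, adjusted p = 0.1158) for TRY. There 0% of probe sets passed limma's adjusted test, and 7789 had an unadjusted p under 0.05. Without the 5 arrays that stand apart, the difference from all intact roots was -0.50 for EXPA7 (adjusted p = 0.01747) and -0.52 for EXPA18 (adjusted p = 0.03056). Against the 5 remaining incubated root arrays it was -0.39 and -0.45, and neither passed (adjusted p = 0.2276 and 0.2284). The gap between 3' and 5' GAPDH control signals, a sign of RNA length, ran from 0.54 through 1.07 to 2.20 in protoplasts. In intact roots it ran from 0.41 through 1.08 to 5.10. On the 16 root arrays that do not stand apart it ran from 0.41 through 0.67 to 2.49. Array signal ran from 73.3 to 85.1 in protoplasts and from 71.5 to 78.0 in intact roots.

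Of 46 genes listed for hair growth and wall, 6 were measured in the sense given above, 4 of them besides EXPA7 and EXPA18. Of these 4, 2 passed as lower in protoplasts and 1 as higher, beside the 18.8% of all probe sets that passed in either direction, and their median difference was -0.39 beside -0.06 over all probe sets. PRX44 and PRX7, class III peroxidases known from root hair cells, were lower by -1.01 (SE 0.21, adjusted p = 0.001265) and -0.66 (SE 0.17, adjusted p = 0.007071). SCN1, a RhoGDI that limits the sites of hair outgrowth, was higher by 0.61 (SE 0.13, adjusted p = 0.001696). Of the 3 patterning genes measured besides TRY, of 22 listed, 2 passed, both as higher. MYC1, a bHLH partner of patterning MYB proteins, was higher by 0.64 (adjusted p = 0.0006558) and GEM, a modulator of GLABRA2 expression, by 0.60 (adjusted p = 0.00953). Of the 8 alpha-expansins measured besides EXPA7 and EXPA18, of 25 listed, EXPA4 (-0.53, adjusted p = 0.0165) passed as lower and EXPA9 (0.92, adjusted p = 0.009252) as higher. Among markers of other cells, RCPG passed as higher, 1 of 4 green shoot genes passed as lower, and no endodermis, cortex, pericycle or stele marker passed. The part of cell makeup in the expansin difference was not tested.

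**Figure D1:**
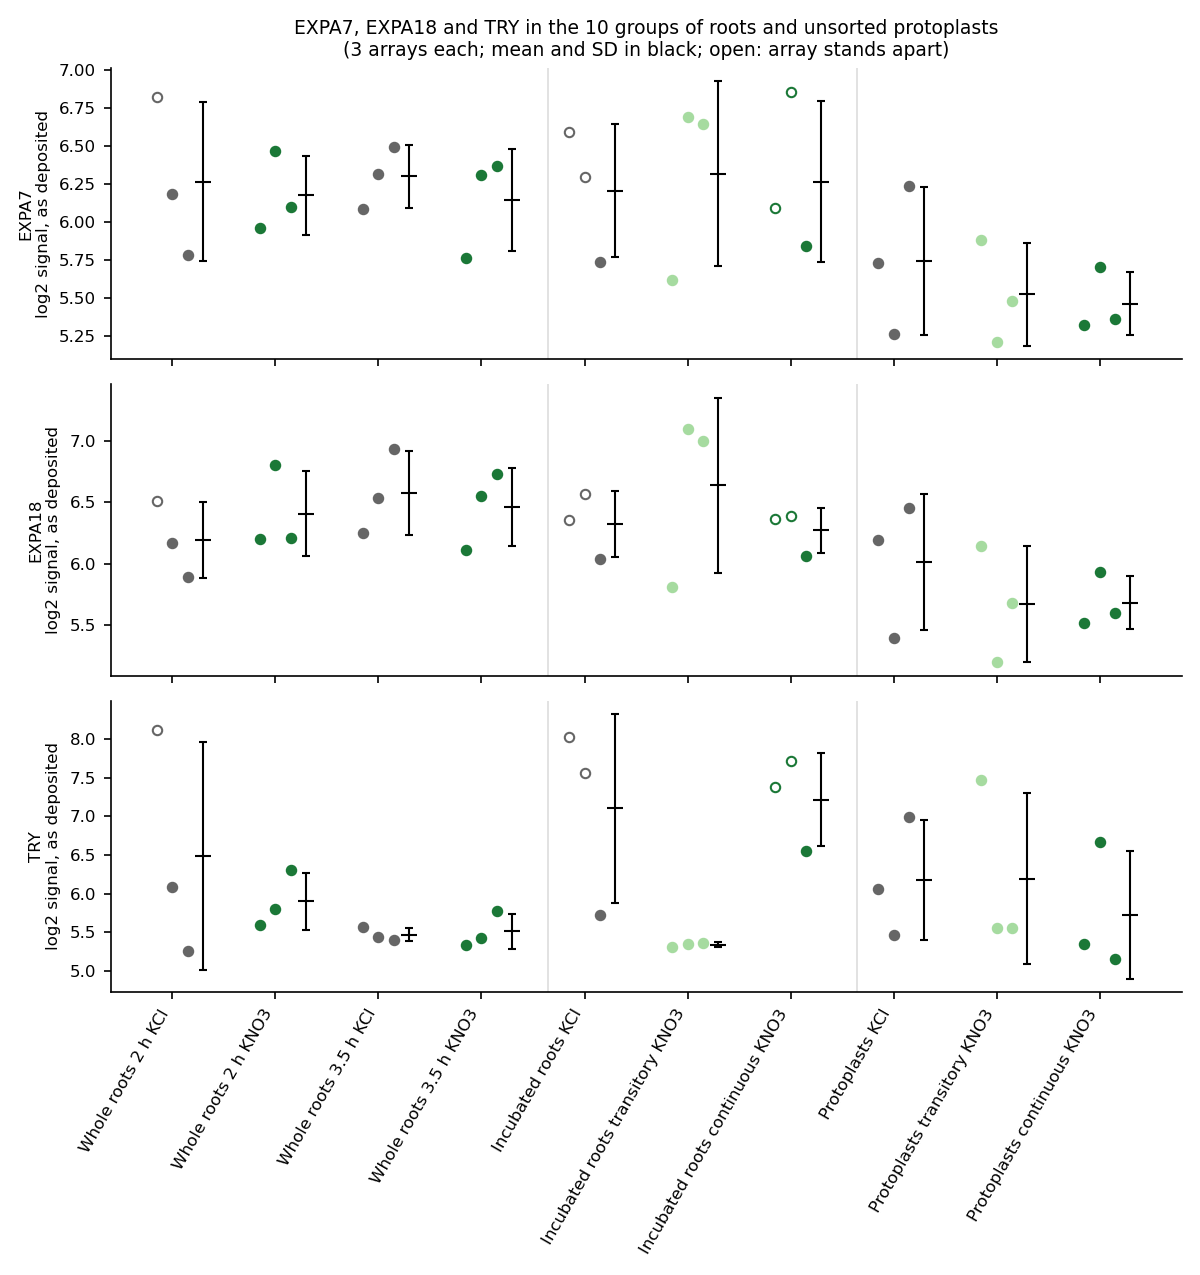
Log2 signal of EXPA7, EXPA18 and TRY on each of the 30 one-cycle arrays, by group, with the mean and SD of 3 arrays in black and open points for the 5 arrays that stand apart (grey, KCl; light green, transitory KNO3; dark green, other KNO3 groups). The 3 protoplast groups hold the lowest means of both expansins, and the highest TRY values of the root groups are on open points.

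Within KCl alone, no handling comparison passed for any of the 3 genes. EXPA7 read 5.73, 5.26 and 6.24 on the protoplast KCl arrays, 6.59, 6.30 and 5.73 on those of incubated roots, 6.08, 6.32 and 6.50 in whole roots at 3.5 h and 6.82, 6.19 and 5.78 at 2 h. EXPA18 read 6.19, 5.40 and 6.45 in protoplasts, 6.36, 6.57 and 6.04 in incubated roots, 6.25, 6.53 and 6.93 in whole roots at 3.5 h and 6.51, 6.17 and 5.89 at 2 h. Groups of 3 overlapped for both expansins in each of these comparisons. Protoplasts minus whole roots at 3.5 h gave -0.56 for EXPA7 (SE 0.32) and -0.56 for EXPA18 (SE 0.31), with limma adjusted p = 0.5558 and 0.5343, where 0.944% of probe sets passed. Protoplasts minus incubated roots gave -0.46 and -0.31, and whole roots at 3.5 h minus 2 h gave 0.03 and 0.38. In both of these, 0% of probe sets passed limma's adjusted test, while 6843 and 2246 had an unadjusted p under 0.05.

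EXPA7 and EXPA18 followed each other from array to array. Over the 25 one-cycle arrays that do not stand apart, their values correlated at r = 0.976, and within the 9 protoplast arrays and the 16 such root arrays at 0.966 and 0.963. With the 5 other arrays included, r was 0.899 over 30. Of 20235 other tested probe sets, EXPA18 was number 3 in likeness to EXPA7 over the 10 group means without those 5 arrays (r = 0.972). That leaves 1 array for incubated roots in KCl and 1 in continuous KNO3. In sorted cells the likeness was looser, with r = 0.683 over 54 arrays and 0.769 over the 52 that do not stand apart. Over the 18 group means of all 54 arrays EXPA18 was number 2552 of 19257 (r = 0.825). The points share arrays, groups and labelling, and any binding of 1 gene's RNA to the other's probes was not tested. Over the 25 one-cycle arrays pooled, TRY did not go with the expansins, at r = 0.06 with EXPA7 and 0.04 with EXPA18. Within the 9 protoplast arrays r was 0.859 and 0.792, and within the 16 root arrays -0.131 and -0.224.

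**Figure D2:**
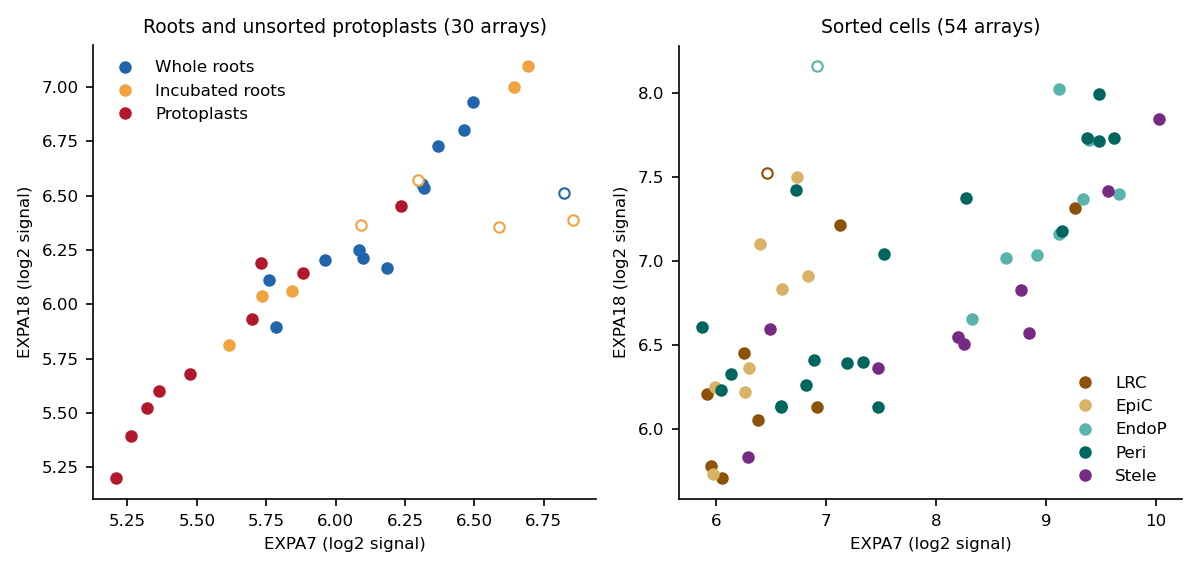
EXPA18 against EXPA7, both as log2 signal, on the 30 one-cycle arrays (left) and the 54 arrays of sorted cells (right), coloured by kind of sample, with open points for arrays that stand apart. The filled points at left lie near 1 line, protoplasts at its lower end (r = 0.976 over 25), and those at right scatter more (r = 0.769 over 52).

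In roots and protoplasts, 1 of 18 tests of the 3 genes under KNO3 passed, also 1 at an unadjusted p under 0.05. It was TRY in incubated roots after transitory nitrate. TRY read 5.31, 5.35 and 5.36 there and 8.03, 7.56 and 5.72 in incubated roots in KCl. The KCl arrays were all higher, but replicates 1 and 2, which are the high ones, stand apart. TRY was lower after nitrate by -1.76 (SE 0.60, limma, adjusted p = 0.0416), where 24.5% of probe sets passed. Without the 2 KCl arrays that stand apart the difference was -0.38 (adjusted p = 0.8494), and it passed in 1 of the 6 fits that leave out 1 array. In continuous nitrate TRY read 7.38, 7.72 and 6.56 in incubated roots, at the level of the KCl arrays, and 2 of those 3 arrays stand apart as well.

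The expansins did not pass under KNO3 in any of the 6 comparisons of roots and protoplasts. EXPA7 read 5.96, 6.46 and 6.10 in whole roots after 2 h of KNO3, 5.76, 6.31 and 6.37 after 3.5 h, 5.62, 6.69 and 6.64 in incubated roots after transitory and 6.09, 6.86 and 5.84 after continuous KNO3. In protoplasts it read 5.88, 5.21 and 5.48 after transitory and 5.32, 5.70 and 5.36 after continuous KNO3. All of these overlapped with their KCl arrays, and the differences for EXPA7 ran from -0.28 to 0.11. EXPA18 read 6.20, 6.80 and 6.21 in whole roots at 2 h of KNO3, 6.11, 6.55 and 6.73 at 3.5 h, 5.81, 7.10 and 7.00 in incubated roots after transitory and 6.36, 6.39 and 6.06 after continuous KNO3. In protoplasts EXPA18 read 6.15, 5.20 and 5.68 after transitory and 5.52, 5.93 and 5.60 after continuous KNO3, and its differences from KCl ran from -0.34 to 0.31, all overlapping. Their SE was 0.32 for EXPA7 and 0.31 for EXPA18, so differences of that size are within the error of 3 arrays. In 5 of the 6 comparisons 0% of probe sets passed limma's adjusted test, with 442 at an unadjusted p under 0.05 in protoplasts under continuous and 178 under transitory KNO3, 46 in incubated roots under continuous KNO3, and 237 and 25 in whole roots at 2 h and 3.5 h.

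In whole roots and protoplasts the SD of TRY over 3 arrays ran from 0.09 in whole roots in KCl at 3.5 h to 1.47 in whole roots in KCl at 2 h, where replicate 1 stands apart. In whole roots TRY read 8.12, 6.09 and 5.26 in KCl at 2 h, 5.60, 5.80 and 6.31 in KNO3 at 2 h, 5.57, 5.44 and 5.40 in KCl at 3.5 h and 5.34, 5.43 and 5.77 in KNO3 at 3.5 h. In protoplasts it read 6.07, 5.46 and 7.00 in KCl, 7.47, 5.56 and 5.55 in transitory and 5.35, 6.67 and 5.15 in continuous KNO3. In KCl, incubated roots exceeded whole roots at 3.5 h by 1.63 (SE 0.60, limma, adjusted p = 0.05344), with all arrays of the 1 above those of the other, where 19.4% of probe sets passed. Of the 3 incubated arrays the 2 highest stand apart, and without them the difference was 0.25 (adjusted p = 0.9299). With array signal as a covariate it was 1.97 (adjusted p = 0.02436), and with the likeness of each array to the 5 that stand apart as a covariate, an alternative chosen after seeing the data, -0.27 (adjusted p = 0.9832). Among the 10 group means in order, 1 of 9 neighbouring gaps for TRY exceeded the larger SD of the pair, and none of 9 did for either expansin.

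**Figure D3:**
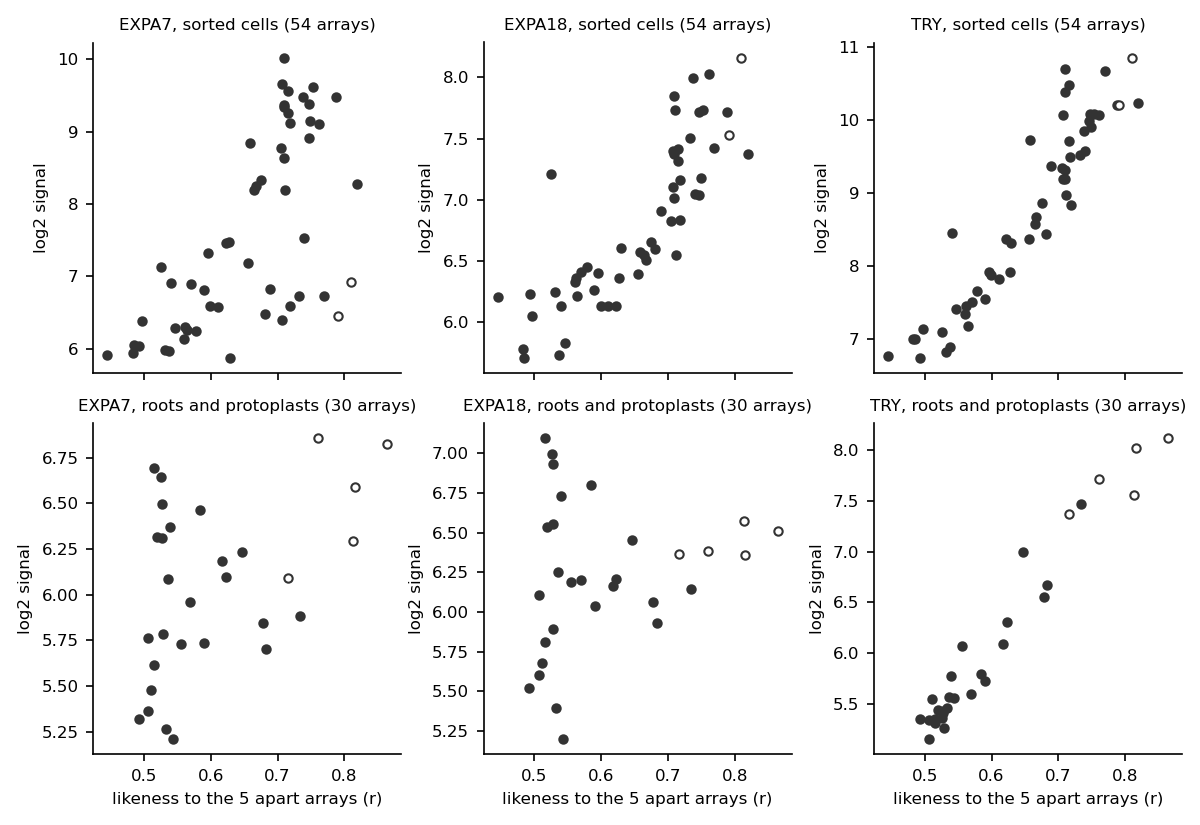
Log2 signal of EXPA7, EXPA18 and TRY against the likeness of each array to the 5 one-cycle arrays that stand apart (Pearson r), for 54 arrays of sorted cells (top) and 30 one-cycle arrays (bottom), with open points for arrays that stand apart. TRY rises along the axis in both sets (r = 0.934 and 0.975), and the expansins do so in sorted cells (0.654 and 0.834).

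TRY ranked high on the arrays that stand apart. On those 5 one-cycle arrays its signal stood at the 92.5th to 99.4th percentile of the array, with a median at 98.6, and on the other 25 at the 30.8th to 89.6th, with a median at 44.4. Likeness was taken as the correlation of an array, without the 3 genes and the controls, with the mean of those 5 arrays, leaving the array itself out. TRY followed likeness at r = 0.946 over the 25 one-cycle arrays that do not stand apart, 0.962 over 9 protoplast and 0.954 over 16 root arrays. In sorted cells the value was 0.934 over 54 arrays, higher than for 99.97% of the probe sets tested, and 0.981 over the 18 Peri arrays. These arrays share labelling and scaling, and the correlations are descriptions. On the 25 one-cycle arrays pooled the expansins did not follow likeness (0.07 for EXPA7 and 0.03 for EXPA18). Within the 9 protoplast arrays the values were 0.732 and 0.655, and within the 16 root arrays -0.219 and -0.305. In sorted cells EXPA7 followed array signal at 0.846 and EXPA18 at 0.806, and TRY did so at 0.784. Among the 19258 probe sets tested, these values stood at percentile 95.0, 91.5 and 89.9, so many other probe sets followed it as closely. With the gap between 3' and 5' GAPDH signals, TRY went at r = 0.629 over the 30 one-cycle arrays and 0.218 over the 25. The parts of likeness, array signal and this gap in the levels of the 3 genes were not tested.

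In sorted cells in KCl, EXPA7 was highest in EndoP and Stele and not in EpiC. EXPA7 read 9.12, 9.39 and 9.34 in EndoP (mean 9.28 ± 0.14, SD, n = 3) and 8.20, 9.56 and 10.03 in Stele (9.26 ± 0.95). It read 6.14, 7.47 and 6.59 in Peri (6.73 ± 0.68), 6.92, 5.95 and 7.13 in LRC (6.66 ± 0.63) and 6.60, 6.26 and 6.83 in EpiC (6.56 ± 0.29). Every EndoP and Stele array lay above every array of the other 3 populations, a split that was not counted over all probe sets. Within an array, EXPA7 stood at percentile 33.47 to 49.62 in EpiC, 24.81 to 57.35 in LRC and 29.95 to 65.25 in Peri. In EndoP it stood at 89.92 to 92.14 and in Stele at 78.87 to 95.78. The populations differed by the F test (limma, adjusted p = 0.003471), which 41.1% of probe sets passed. Against the mean of the other 4, EXPA7 exceeded it by 1.98 in EndoP (SE 0.66, adjusted p = 0.03516) and by 1.95 in Stele (SE 0.66, adjusted p = 0.03207), where 16.3% and 20.5% of probe sets passed. The differences of -1.42 in EpiC (adjusted p = 0.198), -1.30 in LRC (0.1443) and -1.21 in Peri (0.3129) did not pass, where 4.21%, 23.6% and 4.05% of probe sets did. Leaving out Stele replicate 2 or 3 ended the Stele call (adjusted p = 0.1646 and 0.2553), as leaving out any EndoP array (0.08693 to 0.1626), Peri replicate 1 (0.05126) or Stele replicate 1 (0.05998) did for EndoP.

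In EndoP and Stele, where EXPA7 was high, array signal was higher and the green shoot genes were lower than in LRC, EpiC and Peri. Array signal was 237 to 278 on the EndoP and 193 to 315 on the Stele KCl arrays, and 171 to 184 on those of LRC, EpiC and Peri. With array signal as a covariate the difference was 0.56 in EndoP (adjusted p = 0.7107) and 0.43 in Stele (0.7203), and with likeness, an alternative chosen after seeing the data, 1.19 (0.2289) and 1.42 (0.09217). Of 6 green shoot genes 4 were measured, and their mean level was 9.11 to 10.03 in EpiC, 7.22 to 8.85 in LRC, 7.42 to 8.56 in Peri, 6.21 to 6.58 in EndoP and 5.77 to 6.20 in Stele. All 4 passed as higher in EpiC and as lower in EndoP and in Stele. The part of green tissue in the order of the EXPA7 levels was not tested.

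EXPA18 and TRY gave the same order of KCl means at the top, EndoP then Stele, with smaller or uncalled differences. EXPA18 read 7.17, 7.72 and 7.37 in EndoP, 6.55, 7.42 and 7.85 in Stele, 6.84, 6.22 and 6.91 in EpiC, 6.13, 5.78 and 7.22 in LRC and 6.33, 6.13 and 6.14 in Peri. The Stele arrays overlapped with EpiC and LRC, and EXPA18 did not pass the F test (limma, adjusted p = 0.06197) or any single comparison. TRY read 9.50, 10.08 and 10.38 in EndoP, 8.57, 10.48 and 10.70 in Stele, 8.83, 7.18 and 9.37 in EpiC, 7.34, 8.37 and 7.88 in Peri and 8.46, 7.00 and 7.11 in LRC. All EndoP arrays were above the arrays of EpiC, Peri and LRC, and Stele overlapped with EpiC. TRY passed the F test (limma, adjusted p = 0.0136), with 1.55 in EndoP (adjusted p = 0.06974), 1.46 in Stele (0.07778) and -1.53 in LRC (0.05809), none of which passed. The F test of TRY gave 0.6583 with array signal as a covariate and 0.05494 with likeness.

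The other genes of the lists were called in several populations, Stele among them. Of the 4 other measured hair genes PRX44 (1.66, limma, adjusted p = 0.002204) and PRX7 (1.62, adjusted p = 0.008855) were higher in LRC. None passed in EpiC, EndoP, Peri or Stele. Of the 8 other measured alpha-expansins EXPA8 was higher in EpiC by 1.91 (adjusted p = 0.01597) and lower in LRC by -1.37 (adjusted p = 0.03485), and EXPA4 was higher in Peri by 1.13 (adjusted p = 0.005339). In Stele, where EXPA7 was higher, 3 of the 8 were higher too: EXPA15 by 0.91, EXPA20 by 0.95 and EXPA21 by 0.71, beside the 20.5% of all probe sets that passed in either direction. Of the 3 other patterning genes GEM was lower in EndoP by -1.03 (adjusted p = 0.03069), and no other passed in a single population. The median difference of the 4 other hair genes was 0.55 in EpiC, beside 0.04 over all probe sets, and 0.60 in LRC, beside -0.03. It was -0.43 in EndoP, beside -0.13, -0.29 in Stele, beside -0.08, and -0.56 in Peri, beside 0.00.

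**Figure D4:**
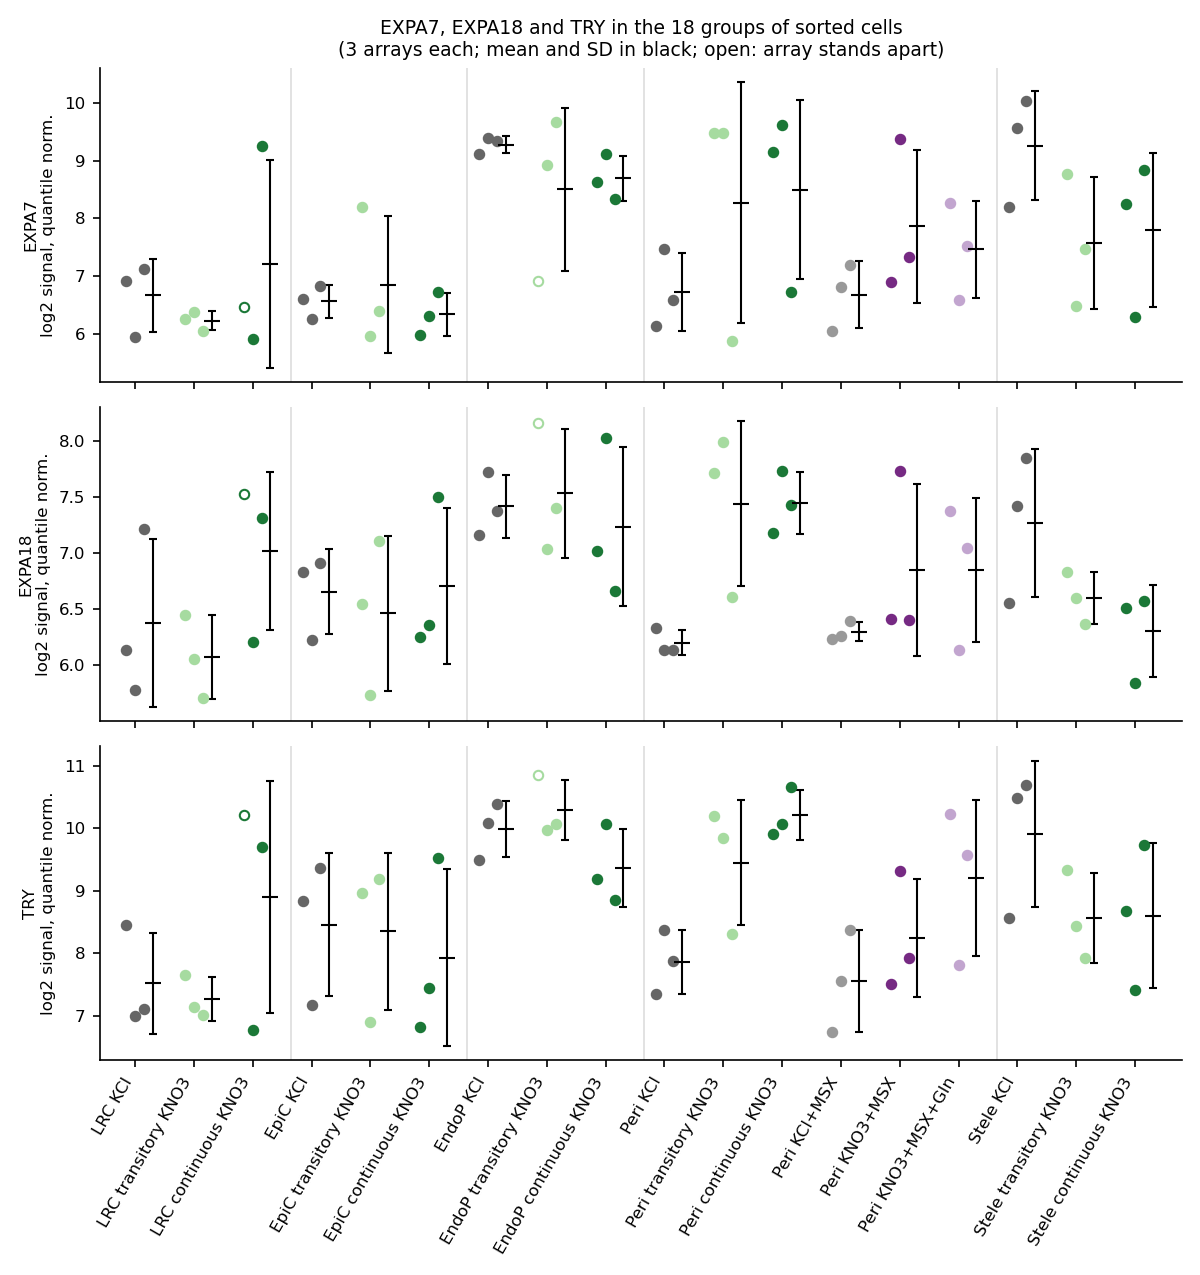
Log2 signal of EXPA7, EXPA18 and TRY on each of the 54 arrays of sorted cells, by group, with the mean and SD of 3 arrays in black and open points for the 2 arrays that stand apart (grey, KCl; light and dark green, transitory and continuous KNO3; light grey and purples, MSX groups). In KCl, EXPA7 lies above 8 in EndoP and Stele only, and in Peri EXPA18 and TRY lie higher in continuous KNO3 than in KCl on all arrays.

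Continuous nitrate was followed by higher EXPA18 and TRY in Peri. TRY read 9.91, 10.08 and 10.66 in Peri in continuous KNO3 and 7.34, 8.37 and 7.88 in KCl. EXPA18 read 7.18, 7.74 and 7.43 against 6.33, 6.13 and 6.14. EXPA7 read 9.14, 9.61 and 6.73 against 6.14, 7.47 and 6.59. All nitrate arrays of TRY and EXPA18 lay above all KCl arrays, and those of EXPA7 overlapped. TRY rose by 2.35 (SE 0.76, limma, adjusted p = 0.03404) and EXPA18 by 1.25 (SE 0.44, adjusted p = 0.04314), while EXPA7 gave 1.76 (SE 0.83, adjusted p = 0.1105), where 18.3% of probe sets passed. In 5 of the 6 fits that leave out 1 array TRY no longer passed, nor did EXPA18 in any of the 6, with adjusted p up to 0.1203 and 0.145 and differences of 2.09 to 2.60 and 1.11 to 1.38.

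The Peri nitrate arrays also differed from the KCl arrays as arrays. Array signal was 322, 373 and 206 in continuous KNO3 and 176 to 178 in KCl, and likeness was 0.75 to 0.77 against 0.56 to 0.62. With array signal as a covariate TRY gave 0.66 (limma, adjusted p = 0.7901) and EXPA18 0.19 (0.8844), and with likeness 0.42 (0.7205) and 0.32 (0.751). The mean level of the 4 green shoot genes was 6.59 to 6.84 in continuous KNO3 and 7.42 to 8.56 in KCl, and none of the 4 passed as changed. The parts of array signal, likeness and cell makeup in the nitrate difference were not tested.

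The other genes of the lists are given beside the 18.3% of all probe sets that passed in Peri under continuous nitrate, in either direction. Of the 3 patterning genes besides TRY, JKD, a zinc finger factor of the cortex that acts on epidermal fate, rose by 1.51 (limma, adjusted p = 0.03564) and GEM fell by 1.25 (adjusted p = 0.03807). Of the 8 alpha-expansins besides EXPA7 and EXPA18, EXPA20 rose by 0.99 and EXPA21 by 1.52, and EXPA8 fell by 2.26 (adjusted p = 0.02119). None of the 4 other hair genes passed. Without EXPA7, EXPA18 and TRY, median differences were -0.53 for patterning genes, 0.62 for expansins and 0.35 for hair genes, beside -0.13 over all probe sets.

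After transitory nitrate, which shares its KCl arrays with the continuous comparison, none of the 3 genes passed in Peri. EXPA18 read 7.72, 8.00 and 6.61, all above KCl, and gave 1.24 (SE 0.44, limma, adjusted p = 0.09792). TRY read 10.20, 9.84 and 8.31 and gave 1.59 (adjusted p = 0.1673), and EXPA7 read 9.48, 9.48 and 5.87 and gave 1.54 (adjusted p = 0.2052), both overlapping with KCl. Replicate 3 was the low array for all 3 genes, and its array signal was 179 against 354 and 289. In this comparison 0.0675% of probe sets passed. Without replicate 3 EXPA18 gave 1.66 (adjusted p = 0.02054) and EXPA7 2.75 (adjusted p = 0.02567).

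In the other populations no nitrate comparison passed for the 3 genes. In Stele all 6 differences were below 0, from -0.97 to -1.47 in continuous and from -0.68 to -1.69 in transitory KNO3, with limma adjusted p from 0.4843 to 0.5521. EXPA7 read 8.25, 6.29 and 8.84 in Stele in continuous and 8.77, 6.48 and 7.47 in transitory KNO3, overlapping with KCl. TRY read 8.67, 7.41 and 9.73 and then 9.34, 8.44 and 7.93, and EXPA18 6.51, 5.84 and 6.57 and then 6.83, 6.60 and 6.36. Array signal in Stele was 180 to 215 in continuous and 172 to 231 in transitory KNO3, beside 193 to 315 in KCl. In both Stele comparisons 0% of probe sets passed limma's adjusted test, with 1986 and 1968 at an unadjusted p under 0.05.

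In LRC under continuous nitrate the 3 arrays differed widely, and replicate 2 was the lowest for all 3 genes. EXPA7 read 6.46, 5.91 and 9.26, EXPA18 7.53, 6.21 and 7.32 and TRY 10.21, 6.77 and 9.70 there. TRY gave 1.37 (SE 0.76, limma, adjusted p = 0.379), and 2.43 (adjusted p = 0.03753) without replicate 2, while replicate 1 is an array that stands apart. In LRC transitory nitrate EXPA7 read 6.25, 6.38 and 6.05, EXPA18 6.45, 6.06 and 5.71 and TRY 7.66, 7.14 and 7.01, with differences from -0.44 to -0.25. This group had the lowest mean of the 18 sorted groups for each of the 3 genes, and it overlapped with KCl. In LRC 0% of probe sets passed under continuous nitrate by limma's adjusted test, with 2766 at an unadjusted p under 0.05, and 0.0104% under transitory nitrate.

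In EpiC, the population that should hold the hair cells, EXPA7 read 5.98, 6.30 and 6.73 in continuous and 8.20, 5.97 and 6.39 in transitory KNO3. EXPA18 read 6.25, 6.36 and 7.50 and then 6.55, 5.73 and 7.11, and TRY 6.82, 7.45 and 9.53 and then 8.97, 6.90 and 9.19. All overlapped with KCl, and the 6 differences ran from -0.53 to 0.29, where 0.488% of probe sets passed under continuous and 0.301% under transitory nitrate. In EndoP EXPA7 read 8.63, 9.11 and 8.33 in continuous KNO3, all below KCl, with a difference of -0.59 (SE 0.83, limma, adjusted p = 1). The nearest arrays read 9.114 in nitrate and 9.117 in KCl, and as deposited the groups overlapped (9.815 against 9.369). EXPA7 read 6.92, 8.92 and 9.66 in transitory KNO3, where replicate 1, the low one, stands apart. EXPA18 read 7.02, 8.03 and 6.66 and then 8.16, 7.04 and 7.40 in EndoP, and TRY 9.19, 10.07 and 8.86 and then 10.85, 9.98 and 10.06, overlapping with KCl. In both EndoP comparisons 0% of probe sets passed limma's adjusted test, with 189 and 1010 at an unadjusted p under 0.05.

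Over the 10 nitrate comparisons of sorted cells, 2 of 30 tests of the 3 genes passed, and 7 had an unadjusted p under 0.05. Both that passed were in Peri under continuous nitrate, where 18.3% of all probe sets passed and 39.7% had an unadjusted p under 0.05. In the other comparisons at most 0.488% of probe sets passed, with 0.981% to 28.5% at an unadjusted p under 0.05. Averaged over the 5 populations, the continuous nitrate difference was 0.01 (SE 0.37) for EXPA7, 0.16 (SE 0.20) for EXPA18 and 0.25 (SE 0.34) for TRY, none of which passed, where 0.452% of probe sets did. The response in Peri exceeded the mean response of the other 4 by 2.62 for TRY (SE 0.86, limma, adjusted p = 0.04461), by 1.36 for EXPA18 (adjusted p = 0.05746) and by 2.20 for EXPA7 (adjusted p = 0.08985), where 10.7% of probe sets passed. The TRY value was 0.80 (adjusted p = 0.9388) with array signal as a covariate and 0.70 (adjusted p = 0.5039) with likeness. It passed in 12 of the 30 fits that leave out 1 array, and without the arrays that stand apart EXPA18 passed as well (1.43, adjusted p = 0.0325). The F test over all 5 responses passed for none (adjusted p = 0.08806 for TRY, 0.1004 for EXPA18 and 0.256 for EXPA7). By that test 0% of probe sets passed in limma, and 5114 had an unadjusted p under 0.05. Over the 18 sorted groups ordered by level, none of the 17 gaps between neighbours exceeded the larger SD of the pair for any of the 3 genes.

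**Figure D5:**
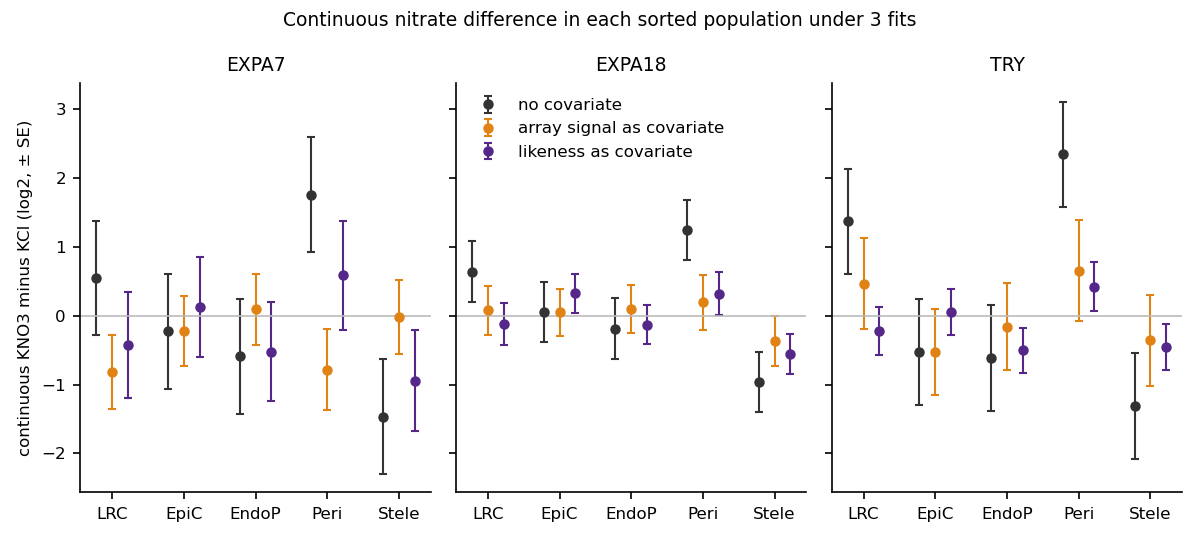
Log2 difference of continuous KNO3 minus KCl, with SE, for EXPA7, EXPA18 and TRY in the 5 sorted populations, from the fit with no covariate, with array signal and with likeness as a covariate. The Peri values of 2.35 for TRY and 1.25 for EXPA18 came to 0.66 and 0.19 with array signal and to 0.42 and 0.32 with likeness.

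With MSX in Peri, none of the 15 tests of the 3 genes passed, Gln included, and 1 had an unadjusted p under 0.05. In KCl with MSX, EXPA7 read 6.04, 6.81 and 7.19, EXPA18 6.24, 6.26 and 6.39 and TRY 6.74, 7.56 and 8.37, overlapping with KCl alone, with differences from -0.31 to 0.10, where 0.0675% of probe sets passed. In KNO3 with MSX, EXPA7 read 6.89, 9.37 and 7.33, EXPA18 6.41, 7.74 and 6.40 and TRY 7.51, 9.31 and 7.92, with replicate 2 high for all 3 genes. All EXPA18 arrays there lay above those of KCl with MSX, by 0.55 on average (SE 0.44, limma, adjusted p = 1). The nearest arrays read 6.402 and 6.394, and as deposited the groups overlapped (6.225 against 6.325). In this comparison 0% of probe sets passed limma's adjusted test, and 275 had an unadjusted p under 0.05. TRY lay below its continuous KNO3 arrays on all arrays, by -1.97 (SE 0.76, limma, adjusted p = 0.09066), where 9.08% of probe sets passed. Without replicate 2 of KNO3 with MSX it was -2.50 (adjusted p = 0.03728).

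With Gln added, EXPA7 read 8.27, 6.58 and 7.53, EXPA18 7.38, 6.13 and 7.05 and TRY 10.23, 7.82 and 9.58. Replicate 2 was the low array for all 3 genes, and the values overlapped with KNO3 with MSX and with continuous KNO3. Against KNO3 with MSX the differences were -0.40, 0.00 and 0.96, where 0.696% of probe sets passed, and against continuous KNO3 -1.03, -0.60 and -1.01, where 3.68% did. Among the listed genes JKD (-1.70) and EXPA21 (-1.14) passed as lower in KNO3 with MSX than in continuous KNO3, and EXPA21 (-1.09) was lower with Gln too.

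The genes whose pattern was most like each of the 3 differed between them. Over the 18 sorted group means and 11075 probe sets with 1 gene, EXPA7 was nearest to AT1G31520 (r = 0.991), AT1G41860 (0.990), AT1G25240 (0.990), AT1G23200 (0.988) and AT5G10690 (0.986). EXPA18 was nearest to AT5G62080 (0.961), AT2G10940 (0.959), AT1G30473 (0.958), AT1G12180 (0.957) and AT1G77960 (0.957). Over the 10 one-cycle groups, these neighbours of the expansins had r from -0.62 to 0.07. TRY was nearest to AT5G25450 (0.992), AT2G07674 (0.991), AT4G33480 (0.985), AT4G27590 (0.985) and AT2G19385 (0.983), and these kept r from 0.83 to 0.95 over the one-cycle groups. The group means share arrays and array signal, and the values are descriptions.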

How the data were processed

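The authors deposited 1 log2 signal per probe set and array, from 0 to 14.46. The authors' software, background correction and normalization are not given in the sources used here, and the base of the logarithm was inferred from regular steps in the unlogged low values. Per the labels' protocols, cell RNA was purified on columns and whole root RNA with TRIzol. The 64 control probe sets were left out. Array medians spanned 0.458 on one-cycle arrays, used as deposited, and 1.04 on two-cycle arrays, which were quantile normalized because the span was over 1. Probe sets above the 40th percentile in at least 3 arrays were tested.

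Group means were fitted per labelling protocol with limma 3.58.1 in R 4.3.3 (eBayes with an intensity trend), two-sided, in 38 comparisons at an adjusted p of 0.05 (Benjamini-Hochberg, over all tested probe sets). Here 3 arrays against 3 cannot reach an exact permutation p below 0.1, and the number of arrays limits the precision. Group values are means with SD, and SE are limma's moderated ones. Whether the arrays of compared groups overlapped was read for named genes only, and its share over all probe sets was not counted. An array stands apart where its median correlation was under 0.75 (one-cycle) or under 0.6 within its sorted population. Array signal trims 2% at each end.

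The members, gene lists and comparisons were chosen with earlier results of these data known. The 4 comparisons that pool treatments over protoplasts or roots, and likeness as a covariate, were added after seeing the data. Listed genes are named where they pass the test in a comparison, and 5 probe sets most alike in the sorted groups are named per gene. The fit was also run on simulated sorted arrays with independent noise and shifts added in Peri under continuous KNO3. No differences in array signal or likeness were built in, so that run does not bear on their part in the Peri results. Replicate numbers were checked for pairing: in 4 of 25 comparisons every correlation of same-numbered arrays was over 0.1 (range -0.651 to 0.887 over all), so replicates were not blocked. Figures were drawn with matplotlib 3.10.9 in Python 3.11.15.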

Additional observations from a re-analysis of the deposited data

Results flagged for a closer look

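The continuous nitrate response of TRY in Peri minus the mean response of the other 4 populations was 2.62 (SE 0.86, adjusted p = 0.04461, limma), in a test of that single difference. The F test over all 5 responses did not pass for TRY (adjusted p = 0.08806). The single difference passed in 18 of its 39 alternatives and not in the other 21, with adjusted p from 0.01636 to 0.9388. It came to 0.80 with array signal (adjusted p = 0.9388) and to 0.70 with likeness as a covariate (adjusted p = 0.5039), and what sets it was not tested. In Peri, TRY was higher on 3 of 3 nitrate arrays than on every KCl array. How many of all probe sets split in this way was not counted. In that comparison 18.3% of them passed, and 39.7% had an unadjusted p under 0.05.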

How the results depend on the processing

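Of 114 tests (3 genes in 38 comparisons), 14 passed, and all 14 passed with robust eBayes and with either other scaling. Among the 14 are those of EXPA7 and EXPA18 in the pooled protoplast comparisons, which were added after the values had been seen. The share of all probe sets that passed is given above with each comparison. Under the scaling that takes sorted arrays as deposited 9 further tests passed, with each array centred on its median 4, with only the arrays compared 9, and without the arrays that stand apart 3. EXPA7 and EXPA18 in protoplasts against intact roots passed in all 39 alternatives, from -0.75 to -0.50 and from -0.70 to -0.52. With no filter, EXPA18 in Peri (continuous KNO3) gave 1.25 (limma, adjusted p = 0.0501). TRY in Peri minus the other 4 then gave 2.62 (0.05137), and neither passed. That fit held more probe sets to adjust over, and the cause of the change was not tested. With only the arrays compared, TRY in incubated roots after transitory KNO3 gave -1.76 (0.0983). Without the arrays that stand apart it gave -0.38, and EXPA7 and EXPA18 in protoplasts minus incubated roots gave -0.39 and -0.45, with fewer samples.

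With array signal as a covariate, EXPA7 gave 0.56 in EndoP and 0.43 in Stele, EXPA18 0.19 and TRY 0.66 in Peri (continuous KNO3), TRY 0.80 in Peri minus the other 4, and the F tests in KCl 0.7423 for EXPA7 and 0.6583 for TRY. With likeness, chosen after seeing the data, the values were 1.19 and 1.42 for EXPA7, 0.32 for EXPA18, 0.42 and 0.70 for TRY and 0.05494 for the F test of TRY. Protoplasts minus incubated roots then gave -0.43 for both expansins, and TRY in incubated roots after transitory KNO3 turned to 0.22. For these the cause was not tested.

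Leaving out 1 array at a time gave 1.84 to 2.07 for EXPA7 in EndoP (10 of 15 passed), 1.57 to 2.48 in Stele (13 of 15), 1.11 to 1.38 for EXPA18 (0 of 6) and 2.09 to 2.60 for TRY (1 of 6) in Peri, 2.35 to 2.87 for TRY in Peri minus the other 4 (12 of 30) and -2.45 to -1.30 for TRY in incubated roots (1 of 6). EXPA18 in protoplasts minus whole roots gave -0.70 to -0.51 and was lost without protoplast KCl replicate 2 (0.05085). With the replicate block all 14 calls held, such as TRY in Peri at 2.35 (adjusted p = 0.03149), and TRY in incubated minus whole roots at 3.5 h in KCl also passed (1.63, 0.04136). The numbers do not pair the arrays in general.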
